A study of Mus musculus with 208 samples.

Results

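Oligodendrocyte precursor cells are the dividing glial cells of the adult brain that give rise to new myelinating oligodendrocytes. The 7 genes described here are used as markers of these cells or of the committed cells that follow them. Which cells of the bulk tissue gave their RNA was not tested. They were taken as a list of mouse symbols, matched to their Ensembl IDs among the 39179 genes of the deposited matrices. They are Pdgfra, Cspg4, Vcan, Olig1, Olig2, Gpr17 and Bmp4. The rule that picks them uses no measured value, but the list was drawn up with earlier results of these data known. All 7 passed the filter on low counts in every edgeR fit. On FPKM, a level scaled by length and depth, the filter for limma left Bmp4 out of the fits of 6 and of 10 months alone, so that counts by limma at those ages cover the other 6.

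The samples were striatum of C57BL/6 mice, from which polyadenylated RNA was sequenced. Each knock-in mouse was heterozygous for a single altered huntingtin allele, named Q175, Q140, Q111, Q92, Q80 or Q20 after its CAG repeat, so repeat length and line cannot be told apart. Each line and wild types were sampled at 2, 6 and 10 months, in 26 groups of 8 libraries with both sexes in each group. Wild types shared the cages of each line at 6 months and those of Q20 at 2 and 10 months, and Q20 is the short-repeat knock-in against which the longer repeats were set. In a long-repeat carrier, as in the human disease, the medium spiny projection neurons of the striatum are the cells most affected.

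In the lineage, platelet-derived growth factor acts through the receptor encoded by Pdgfra and keeps precursors alive and dividing. The basic helix-loop-helix factors Olig1 and Olig2 specify the lineage, and both stay on in mature oligodendrocytes, so they do not mark precursors alone. Bone morphogenetic proteins, of which Bmp4 encodes a member, hold back the maturation of precursors in culture and turn some toward an astrocyte fate. Gpr17 and Bmp4 are highest in committed, newly differentiating cells and are shut off when myelin is made.

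Olig2 and Olig1 lie next to each other on chromosome 16 in the RefSeq annotation of GRCm38.p6, with 0 annotated genes between them. Olig2 and Bmp4 were called in Q175 against Q20 at different ages. A test of the change in the Q175 difference between those ages called neither. Pdgfra is the one with no called difference in any test on all libraries. The upstream sequences of these 3 members are therefore shown. Each is the 250 bases before the RefSeq gene start, 5′ to 3′, and capitals mark matches to the E-box (CANNTG), the element that basic helix-loop-helix factors read, and to the GC box (GGGCGG), searched on both strands. The Olig2 stretch is chr16:91225300-91225549 on the plus strand, that of Bmp4 is chr14:46390670-46390919 on the minus strand, and that of Pdgfra is chr5:75152001-75152250 on the plus strand.
Olig2: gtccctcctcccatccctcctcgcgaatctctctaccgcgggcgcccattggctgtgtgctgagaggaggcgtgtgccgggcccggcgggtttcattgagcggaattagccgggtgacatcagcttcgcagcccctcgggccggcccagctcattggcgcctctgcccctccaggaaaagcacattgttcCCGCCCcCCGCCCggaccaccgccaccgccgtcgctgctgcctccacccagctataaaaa
Bmp4: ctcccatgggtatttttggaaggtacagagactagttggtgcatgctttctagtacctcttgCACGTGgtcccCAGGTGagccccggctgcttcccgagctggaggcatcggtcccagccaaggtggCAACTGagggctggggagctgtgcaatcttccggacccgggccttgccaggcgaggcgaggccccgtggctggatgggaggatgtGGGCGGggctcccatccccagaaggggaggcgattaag
Pdgfra: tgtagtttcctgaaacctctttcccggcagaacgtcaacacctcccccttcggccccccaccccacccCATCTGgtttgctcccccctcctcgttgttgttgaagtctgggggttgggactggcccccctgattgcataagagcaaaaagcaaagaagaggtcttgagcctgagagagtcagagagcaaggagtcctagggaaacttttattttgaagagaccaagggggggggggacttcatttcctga
The Olig2 stretch holds 2 GC boxes and 0 E-boxes and is 66.8% G or C. The Bmp4 stretch holds 3 E-boxes and 1 GC box at 63.2% G or C, and the Pdgfra stretch holds 1 E-box and 0 GC boxes at 54.4%. No 2 matches overlapped. Among the 32851 stretches of that length in the RefSeq table, 66.2% held an E-box and 32.7% a GC box, and the median was 52.4% G or C. Such matches describe the letters and are not sites shown to be used.

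Libraries held 29.3 to 43.0 M counts at 2 months, 29.1 to 49.6 M at 6 months and 30.3 to 39.6 M at 10 months (M, 1e+06 counts). The lowest count of a member in any library was 32, for Bmp4, whose median was 57 counts, while Olig1 had at least 2169 counts in each library and Olig2 at least 484. The medians of the others were 2122.5 counts for Pdgfra, 1833.5 for Gpr17, 1267.5 for Vcan and 759.5 for Cspg4. The precision of Bmp4 is therefore the lowest. At 2 months 7 libraries stood apart, Q111 F2, Q92 M3 and M4, Q80 M5, Q20 M2 and M3 and wild type F1, where F or M is the sex and the digit the replicate. In these 7, 17.2 to 24.1% of counts fell on mitochondrial genes, against 11.4 to 14.9% in the other 49 libraries of that age. Called changes that rest on them are given with and without them.

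The first question was how strongly each gene was expressed across lines and ages. Per kilobase, Olig1 had the highest level, with group means between 37.6 and 71.9 FPKM (fragments per kilobase of exon and 1e+06 mapped fragments). Olig2 followed at 8.32 to 13.2 FPKM, then Gpr17 at 6.30 to 12.2 and Pdgfra at 7.91 to 9.46 FPKM. Vcan, which encodes the matrix proteoglycan versican, had 3.51 to 4.66 FPKM, and Cspg4, which encodes the NG2 proteoglycan of the precursor surface, had 1.97 to 3.64 FPKM. Bmp4 was lowest at 0.701 to 1.25 FPKM. Olig1 lay above and Bmp4 below all the others. With all ages pooled, the ranges of group means overlap for Olig2, Gpr17 and Pdgfra, and for Vcan and Cspg4. Within each age all Vcan means lay above those of Cspg4, as at 6 months (3.87 to 4.26 against 2.98 to 3.64 FPKM). Gpr17 means lay above those of Pdgfra at 2 months (10.1 to 12.2 against 8.43 to 9.46 FPKM). They overlapped at 6 months and lay below those of Pdgfra at 10 months (6.30 to 7.31 against 7.91 to 9.16 FPKM).

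Between groups, levels are given as CPM, counts per 1e+06 counts of a library scaled by its TMM factor. Pdgfra was the steadiest member: its highest group mean, 62.1 ± 3.86 CPM in Q175 at 2 months, was 1.19 times its lowest, 52.2 ± 4.97 CPM in Q80 at 10 months (SD, n = 8 each). For Vcan this ratio was 1.27 and for Olig2 1.51. Bmp4 and Olig1 each reached 1.83, Cspg4 1.87 and Gpr17 1.92. When the groups of an age were put in order of their means, the gap between neighbours exceeded the larger SD of the pair in only 1 of 161 pairs, so the order within an age is mostly not resolved.

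**Figure D1:**
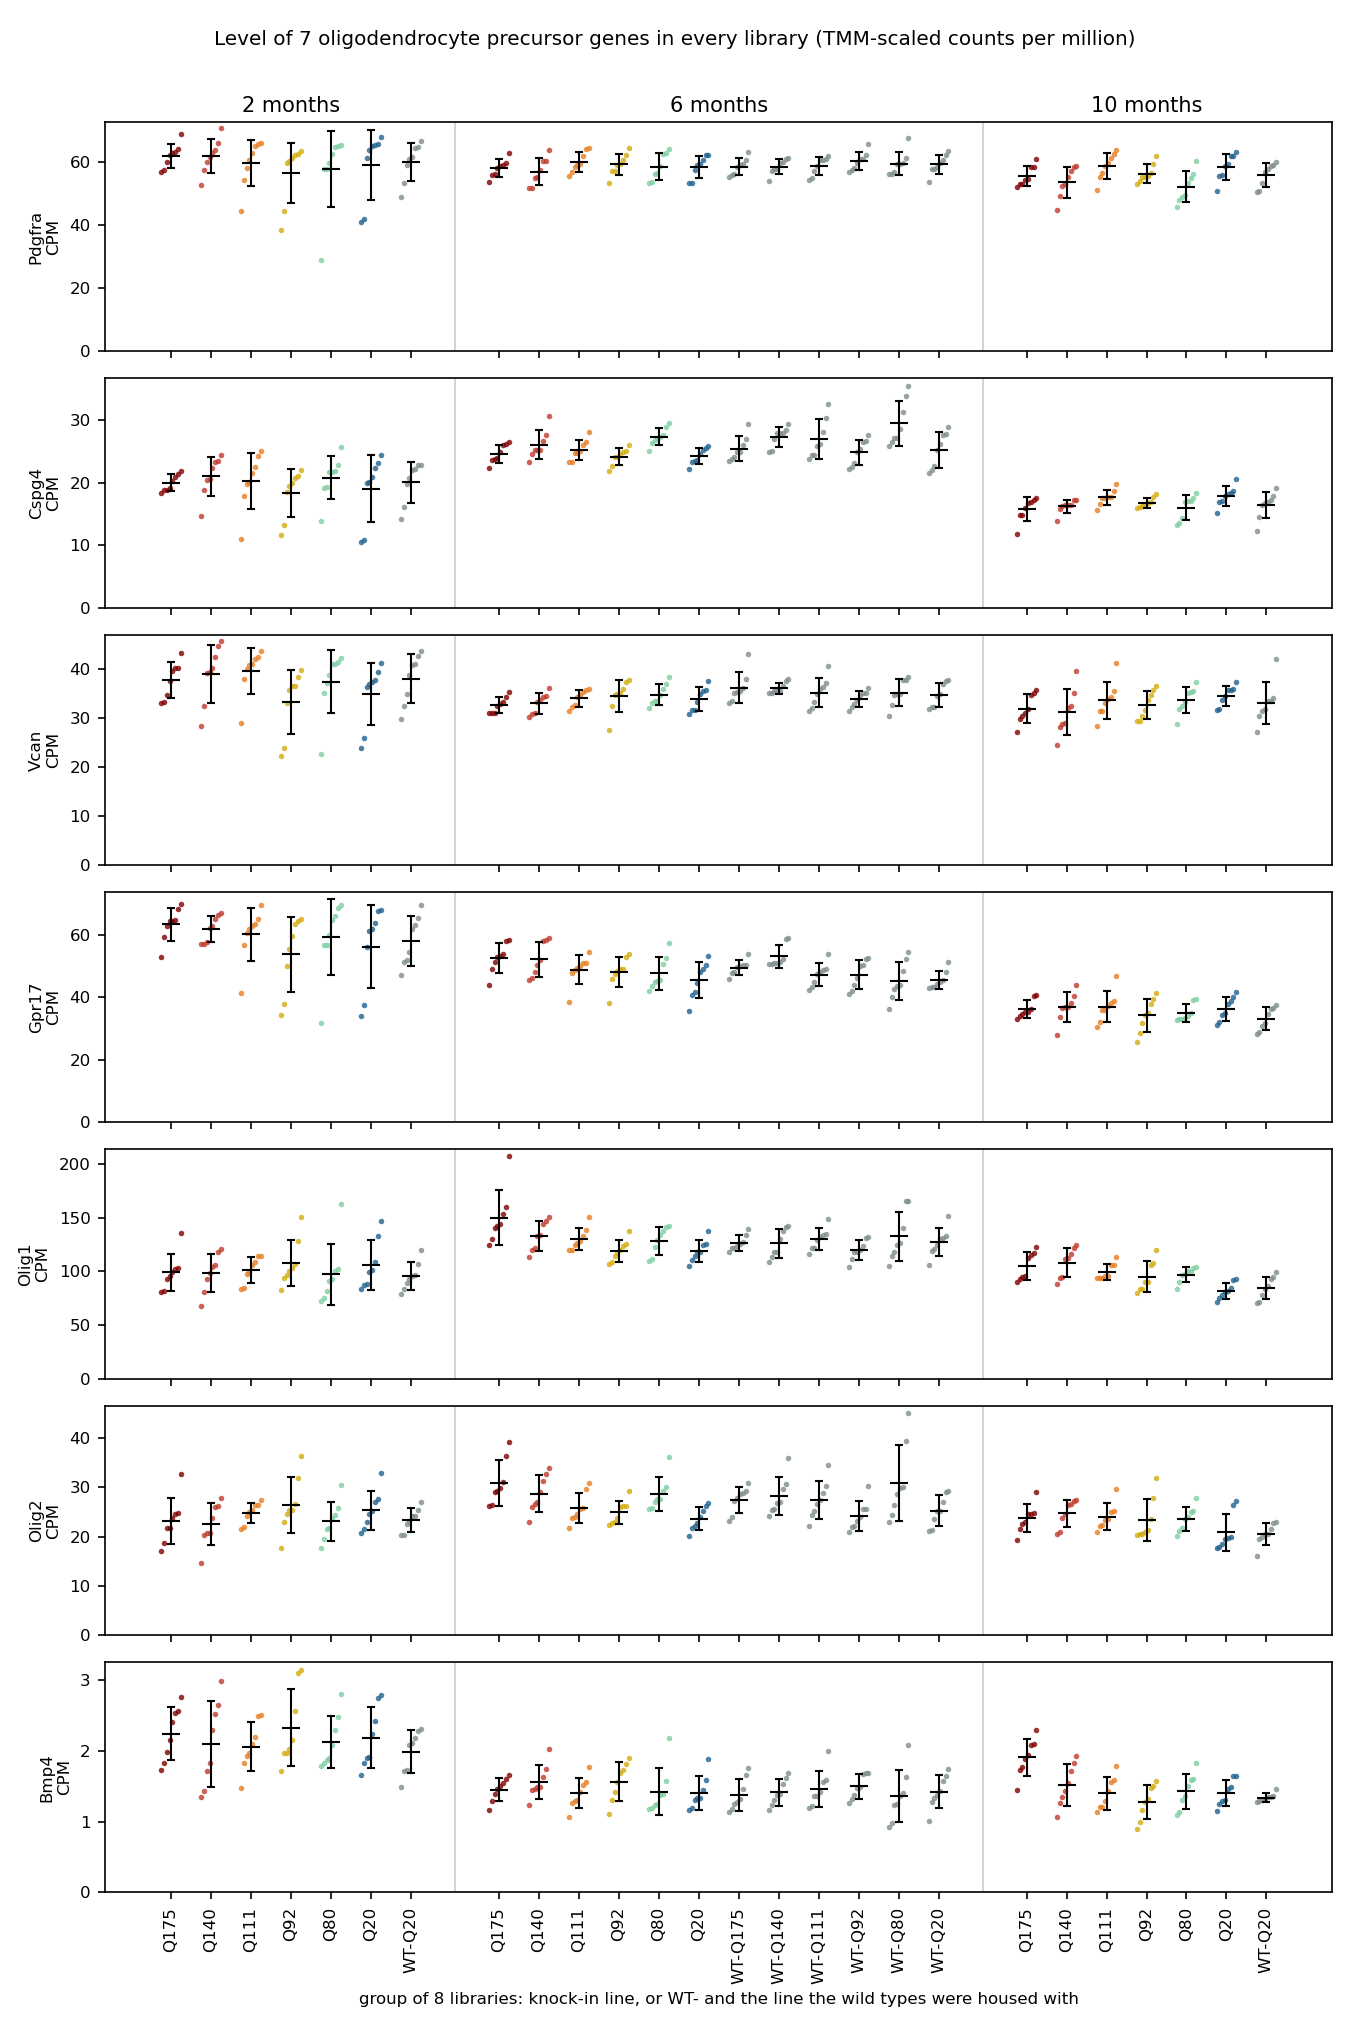
Level of each member in every library (points, CPM scaled by TMM, linear axes) for the 26 groups of 8, ordered by age and, within an age, from Q175 down to Q20 and wild type, with the group mean and SD as bars. Gpr17 group means are lower at each later age, those of Cspg4 and Olig1 are highest at 6 months, and Pdgfra stays between group means of 52.2 and 62.1 CPM.

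Differences with age were tested next, and the cohorts of each age were separate, so age and cohort cannot be told apart. The tests used the wild types housed with Q20, 8 libraries at each age. Differences below are log2 fold changes from edgeR's quasi-likelihood test with Benjamini-Hochberg adjustment over all genes tested. At 6 against 2 months 2 members rose and 2 fell, beside 29.9% of all genes called, and at 10 against 2 months 4 fell, beside 23.7% of all genes called. P-values here measure the spread between libraries, each labelled as a separate replicate.

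Gpr17, a receptor found in the brain mainly in committed precursors, changed most of the members at 10 against 2 months. At 6 against 2 months Bmp4 (-0.48) and Olig1 (0.41) had larger changes. Wild types had from 47.1 to 69.7 CPM at 2 months (median 58.4), from 43.1 to 51.2 at 6 months (median 44.7) and from 28.3 to 37.7 at 10 months (median 33.2). The libraries of 10 months all lay below all of those of 2 and 6 months, while those of 6 and 2 months overlapped. The change was -0.81 at 10 against 2 months (SE 0.09, adjusted p = 3.91e-12) and -0.36 at 6 against 2 months (SE 0.09, adjusted p = 0.00166). Across the knock-in and wild-type groups the means ran from 53.8 to 63.4 CPM at 2 months, from 45.2 to 53.1 at 6 months and from 33.1 to 36.9 at 10 months, with no overlap between ages. In bulk tissue, fewer cells of a type and less RNA per cell cannot be told apart, here or in any later result.

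Bmp4, the ligand among the members, was also lower in the older wild types. It had from 1.48 to 2.31 CPM at 2 months (median 2.10), from 1.01 to 1.74 at 6 months (median 1.40) and from 1.28 to 1.47 at 10 months (median 1.34). All 8 libraries of 10 months lay below all of those of 2 months, and those of 6 months overlapped both. The change was -0.57 at 10 against 2 months (SE 0.13, adjusted p = 0.000218) and -0.48 at 6 against 2 months (SE 0.12, adjusted p = 0.00115). On log2(FPKM + 1), which understates low genes, limma gave -0.29 and -0.22, both called.

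Cspg4 went up and then down. Its wild-type values ran from 14.2 to 22.8 CPM at 2 months (median 21.4), from 21.6 to 28.9 at 6 months (median 25.6) and from 12.3 to 19.1 at 10 months (median 16.8). The ranges of 6 and 2 months overlapped only at their ends, and all libraries of 10 months lay below all of those of 6 months. The change was 0.33 at 6 against 2 months (SE 0.09, adjusted p = 0.00369) and -0.29 at 10 against 2 months (SE 0.10, adjusted p = 0.0153). Olig1 rose at 6 against 2 months by 0.41 (SE 0.09, adjusted p = 0.000249), with 106 to 152 CPM at 6 months (median 127) and 79.1 to 120.0 CPM at 2 months (median 94.4). Its groups overlapped, although each library of 6 months was above the mean of 2 months. At 10 against 2 months Olig1 differed by -0.18 (adjusted p = 0.168).

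Vcan fell at 10 against 2 months by 0.20 (SE 0.08, adjusted p = 0.0471), with 27.2 to 42.1 CPM at 10 months (median 32.6) and 29.9 to 43.6 CPM at 2 months (median 39.8). Those groups overlapped over most of their range, and with no filter on low counts the call was lost (adjusted p = 0.0674). Olig2 did not pass at either age, at 0.11 for 6 months (adjusted p = 0.444) and -0.19 for 10 months (adjusted p = 0.182). Pdgfra did not pass either, at -0.019 for 6 months (adjusted p = 0.862) and -0.10 for 10 months (adjusted p = 0.304). Without the 7 libraries of 2 months that stood apart, Pdgfra passed at 10 months (-0.14, adjusted p = 0.0139) and Vcan at 6 months (-0.17, adjusted p = 0.0294), and the 8 calls above held.

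Base composition moved with age. The 3 members whose transcripts are 58 to 62% G or C are Cspg4, Olig1 and Olig2. The median of all genes of that class was 0.21 at 6 against 2 months and -0.12 at 10 against 2 months. That class median has the sign of the Cspg4 and Olig1 changes, and its part in them was not tested. In the class of Gpr17 and Bmp4, 50 to 54% G or C, the medians were 0.05 and -0.024, and its part was not tested here either.

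**Figure D2:**
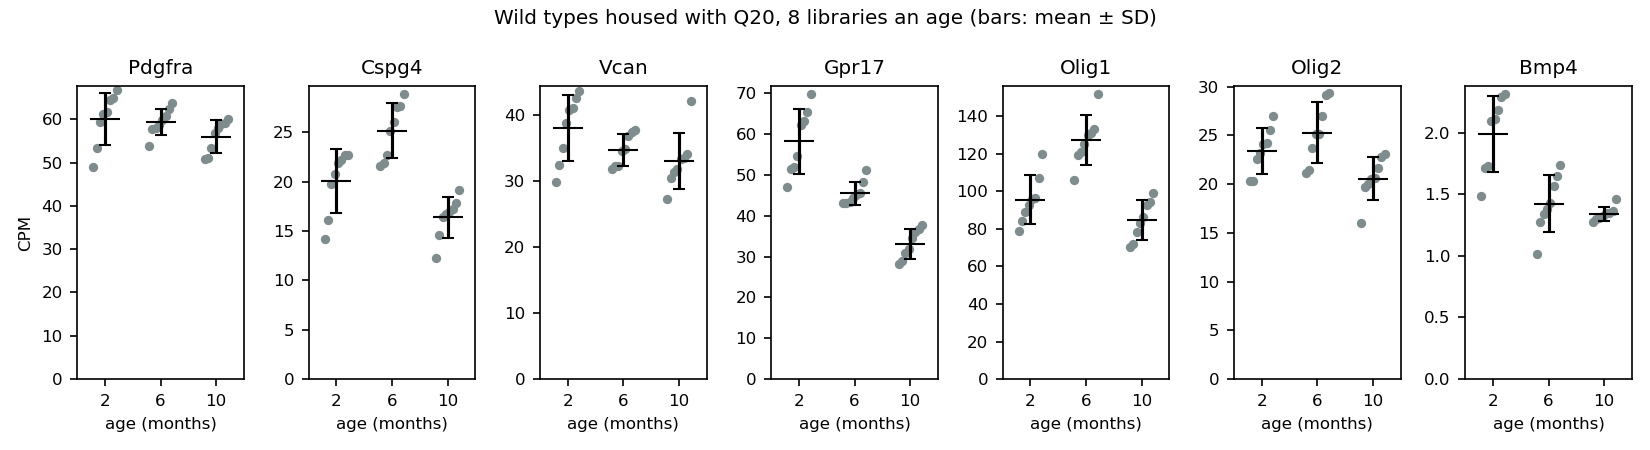
Level of each member in wild types housed with Q20 at 2, 6 and 10 months (8 libraries an age, points, CPM scaled by TMM; bars, mean and SD). Gpr17 and Bmp4 at 10 months lie wholly below 2 months, and Cspg4 and Olig1 are highest at 6 months.

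Other genes of the lineage differed with age as well. At 10 against 2 months 12.1% of all genes rose and 11.7% fell. Of 12 genes of committed precursors and new oligodendrocytes, 6 fell and 1 rose (58.3% called). Among them Rras2, a Ras-like GTPase, fell by 0.64 (SE 0.10, adjusted p = 2.69e-07), and Cemip2, a cell surface protein, fell by 0.50 (SE 0.08, adjusted p = 7.62e-07). The 1 that rose, Tcf7l2, named after its values were seen, did so by 2.01, and it is also a thalamic gene. Thalamic markers moved with it: 4 of 5 rose, their summed level ran from 61.3 to 579 CPM at 10 months and from 44.2 to 69.8 CPM at 2 months, and their part in the result was not tested. Of 12 cell cycle genes 10 fell and 0 rose (83.3% called), Mki67 by 1.11 (SE 0.17) and Top2a, the topoisomerase of dividing cells, by 1.51 (SE 0.21). Of 19 other genes enriched in precursors 6 fell and 1 rose (36.8%), and of 15 myelin genes 2 rose and 0 fell (13.3%). List medians were -0.20 for the committed list, -0.75 for the cell cycle, -0.11 for other precursor genes and 0.002 for myelin genes, with all genes at -0.0051. Mki67 and Top2a were also chosen after their values were seen.

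The main question was whether a long repeat changes the members against Q20. At 2 months edgeR called 0 of 7 in each of the 5 longer lines, and 0 reached an unadjusted p under 0.05. Over all genes the share called was 0.218% for Q175, 0% for Q140, 0.0176% for Q111, 0% for Q92 and 0.0118% for Q80. DESeq2 and limma on FPKM also called 0 members. These tests were less precise than those of later ages. For Q175 the median SE over all genes was 0.114 at 2 months, 0.0598 at 6 months and 0.0681 at 10 months. Gpr17 had the largest difference in Q175, 0.17 (SE 0.13), with 52.8 to 70.1 CPM in Q175 (median 64.6) and 34.2 to 67.9 CPM in Q20 (median 61.6). The 2 lowest Q20 values belong to the libraries with a high mitochondrial share. Without the 7 libraries the Gpr17 difference was -0.00087, and Pdgfra, Cspg4, Vcan and Olig1 also changed sign, with 0 members called.

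At 6 months 3 of 7 members rose in Q175 and 0 fell, beside 36.2% of all genes called in either direction. The transcription factors led. Olig1 had from 124 to 207 CPM in Q175 (median 143) and from 105 to 137 CPM in Q20 (median 118). All 8 Q175 libraries lay above the Q20 mean, the lowest ones overlapped the Q20 range, and the highest, Q175 M4, lay apart from its group. The log2 fold change was 0.33 (SE 0.07, adjusted p = 9.48e-05).

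Olig2 had from 26.2 to 39.3 CPM in Q175 (median 29.6) and from 20.2 to 26.9 CPM in Q20 (median 23.5). The ranges overlapped only at their ends, and each Q175 library was above the Q20 mean. Its log2 fold change was 0.38 (SE 0.10, adjusted p = 0.00081). Gpr17 rose less, by 0.21 (SE 0.07, adjusted p = 0.0124), with 43.9 to 58.3 CPM in Q175 (median 53.1) and 35.8 to 53.2 CPM in Q20 (median 46.4). Its groups overlapped widely, 7 of 8 Q175 libraries were above the Q20 mean, and without Q20 F1 the change was 0.16 (adjusted p = 0.0639).

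The surface and matrix members showed no called difference in Q175. Pdgfra differed by -0.013 (95% interval from -0.09 to 0.07), Cspg4 by 0.017 (from -0.09 to 0.13) and Vcan by -0.059 (from -0.15 to 0.035). Bmp4 differed by 0.037, with a wider interval from -0.19 to 0.27. The interval of Olig1, from 0.19 to 0.47, and that of Pdgfra have no value in common.

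In Q140 at 6 months 2 members rose, beside 27.9% of all genes. Gpr17 rose by 0.20 (SE 0.07, adjusted p = 0.0209), with 45.6 to 59.0 CPM in Q140 (median 51.3), and all 8 libraries lay above the Q20 mean. Olig2 rose by 0.28 (SE 0.10, adjusted p = 0.0218), with 22.9 to 33.9 CPM in Q140 (median 28.1). Both calls depend on single libraries: Gpr17 lost its call without Q140 F1, F4 or M4 or Q20 F1 or M1 (0.15 to 0.18), and Olig2 without Q140 F1 or M1 or Q20 F4 (0.24 to 0.25). Olig1 differed by 0.16 in Q140 (adjusted p = 0.0849). The Q20 libraries are shared by these comparisons.

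The shorter repeats had no called member at 6 months, with 12.8% of all genes called in Q111, 5.99% in Q92 and 0.289% in Q80. At an unadjusted p under 0.05 the counts were 0, 0 and 2, and DESeq2 and limma called 0. The 2 in Q80 were Cspg4 (0.18, adjusted p = 0.186) and Olig2 (0.28, adjusted p = 0.230). A linear trend over the 6 lines was called for 3 members, beside 42.2% of all genes. Per 10 repeats the change was 0.022 for Olig2 (SE 0.0057, adjusted p = 0.000847), 0.020 for Olig1 (SE 0.0042, adjusted p = 6.2e-05) and 0.014 for Gpr17 (SE 0.0041, adjusted p = 0.00249). The trend treats libraries as independent although repeat length differs only between lines. Without Q175 it held for Gpr17 only, with 0.013 for Olig1 (adjusted p = 0.0584) and 0.019 for Olig2 (adjusted p = 0.0513).

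**Figure D3:**
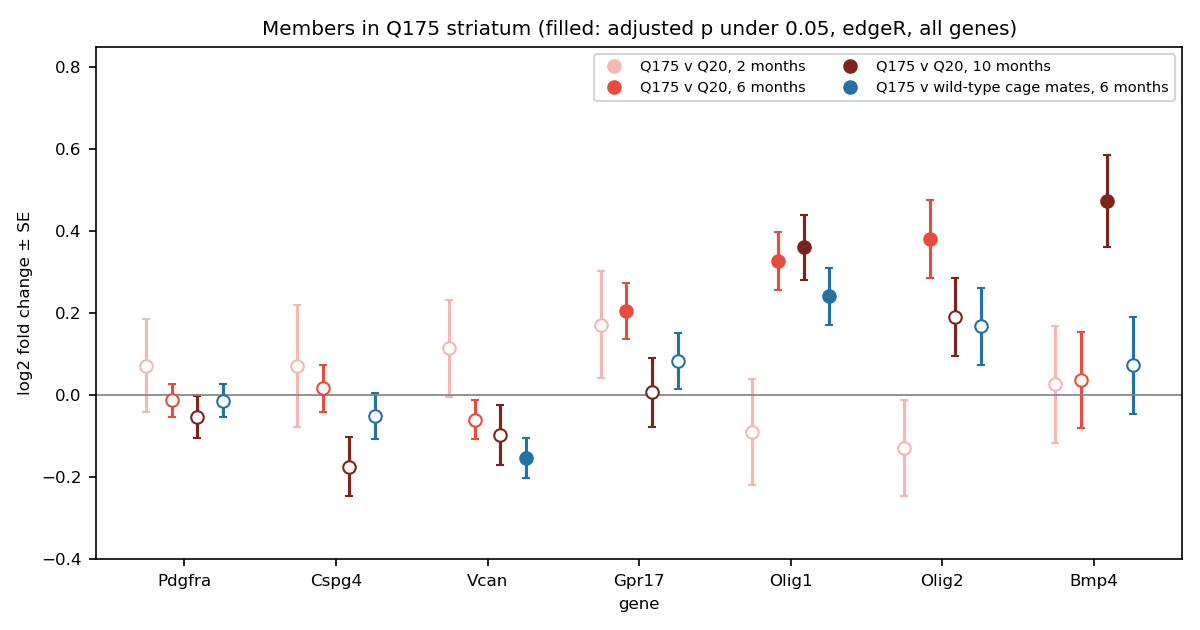
Log2 fold change of each member, Q175 over Q20 at 2, 6 and 10 months and Q175 over wild-type cage mates at 6 months (points, filled where the adjusted p was under 0.05; bars, SE; 8 libraries a group). Against Q20, Olig1 is called above 0 at 6 and 10 months, Olig2 and Gpr17 at 6 months and Bmp4 at 10 months. Pdgfra lies close to 0 throughout.

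Set against their own wild-type cage mates at 6 months the lines gave a shorter list. In Q175 2 members were called, beside 31.8% of all genes. Olig1 rose by 0.24 (SE 0.07, adjusted p = 0.00472), the wild types having 118 to 139 CPM (median 125), and 7 of 8 Q175 libraries were above their mean. Olig2 differed by 0.17 (adjusted p = 0.179) and Gpr17 by 0.08 (adjusted p = 0.383), so these rises in Q175 were called against Q20 but not against cage mates. The difference between Q20 and the wild types housed with Q175 was not itself tested.

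Vcan fell in Q175 against cage mates by 0.15 (SE 0.05, adjusted p = 0.00879), with 30.9 to 35.2 CPM in Q175 (median 32.6) and 33.0 to 43.1 CPM in wild types (median 35.3). All 8 Q175 libraries were below the wild-type mean, but the ranges overlapped. Without wild type M4 the change was -0.11 (adjusted p = 0.0645), and on log2(FPKM + 1) it was 0.014 (adjusted p = 0.83), so its direction depends on the scale. In Q140 Vcan fell by 0.14 (SE 0.05, adjusted p = 0.0280), the 1 member called beside 24.2% of all genes, with 30.1 to 36.1 CPM in Q140 (median 33.4) and 35.0 to 38.0 CPM in its wild types (median 35.5). That call was lost without any of Q140 M1, M2 or M4 or wild types F3 or M2 (-0.13 to -0.12), with no filter on low counts (-0.13, adjusted p = 0.0525) and in 3 settings on FPKM (-0.13 to -0.11, adjusted p up to 0.127).

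The other lines had 0 members called against cage mates by edgeR, 0 at an unadjusted p under 0.05 and 0 by DESeq2 and limma. Over all genes the share was 8.94% in Q111, 0.051% in Q92, 0.051% in Q80 and 0.0227% in Q20. Against the wild types of 2 and 10 months Q20 also had 0 members called, 0 at an unadjusted p under 0.05 and 0 by DESeq2 and limma, beside 0% and 0.0116% of all genes. Among the 6 wild-type groups of 6 months 1 member differed, beside 1.34% of all genes. Cspg4 (adjusted p = 0.0256) ran from a mean of 24.8 ± 2.03 CPM in wild types housed with Q92 to 29.4 ± 3.59 CPM in those housed with Q80 (SD, n = 8 each), and these groups overlapped.

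At 10 months 2 of 7 members rose in Q175 and 0 fell, beside 24.5% of all genes. Olig1 had from 89.8 to 123 CPM in Q175 (median 104) and from 71.1 to 93.2 CPM in Q20 (median 81.2). Each Q175 library was above the Q20 mean, and the ranges overlapped only at their ends. Its log2 fold change was 0.36 (SE 0.08, adjusted p = 0.000519). Bmp4 had from 1.45 to 2.30 CPM in Q175 (median 1.91) and from 1.15 to 1.65 CPM in Q20 (median 1.38).

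Bmp4 rose by 0.48 (SE 0.11, adjusted p = 0.00105), with all 8 Q175 libraries above the Q20 mean and a small overlap of the groups. On log2(FPKM + 1) with no filter, a scale that understates low genes, it was 0.21 (adjusted p = 0.000697). At that age Q175 had 1.91 ± 0.262 CPM, against 2.25 ± 0.377 CPM in Q175 at 2 months and 1.40 ± 0.185 CPM in Q20 at 10 months (SD, n = 8 each). Its trend of 0.028 per 10 repeats (SE 0.0067, adjusted p = 0.00075) was lost without Q175 (0.0082, adjusted p = 0.565). In Q140 Bmp4 differed by 0.14 (adjusted p = 0.424). Olig2 differed by 0.19 in Q175 (adjusted p = 0.139) and Gpr17 by 0.0067 (95% interval from -0.16 to 0.17). Cspg4 differed by -0.17 (adjusted p = 0.0661), with each Q175 library below the Q20 mean.

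Olig1 was the member called in most lines at 10 months. It rose by 0.40 in Q140 (SE 0.08, adjusted p = 0.000165), the 1 member called beside 22.5% of all genes, and by 0.28 in Q111 (SE 0.08, adjusted p = 0.0119), the 1 member called beside 12.5%. Q140 had 88.7 to 125 CPM (median 112) and Q111 had 93.6 to 113 CPM (median 95.9). The Q111 libraries lay wholly above those of Q20, although by a narrow gap. Q92 and Q80 had 0 members called, beside 1.12% and 0.122% of all genes. At an unadjusted p under 0.05 they had 1 (Olig1, 0.21, adjusted p = 0.226) and 3 (Olig1, 0.24, adjusted p = 0.110, with Pdgfra at -0.16 and Cspg4 at -0.16), and DESeq2 and limma called 0.

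Wild types of 10 months had 70.3 to 99.2 CPM of Olig1 (median 84.8), within which the Q20 range falls. The trend over the 6 lines was called for 2 members, beside 34.3% of all genes: Olig1 at 0.025 per 10 repeats (SE 0.0048, adjusted p = 3.75e-05) and Bmp4 as above. Without Q175 the Olig1 trend was kept. At 2 months the trend called 0 members, 0 at an unadjusted p under 0.05 and 0 by DESeq2 and limma, beside 0.594% of all genes.

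Whether the Q175 difference itself changed with age was tested in a joint fit of all libraries. From 2 to 6 months it grew for 2 members, beside 7.88% of all genes, by 0.42 for Olig1 (SE 0.13, adjusted p = 0.0269) and 0.51 for Olig2 (SE 0.14, adjusted p = 0.0121). From 2 to 10 months it grew for 1, Olig1, by 0.44 (SE 0.13, adjusted p = 0.0275), beside 6.33%. The Bmp4 estimate for that span was also 0.44, less precise and not called (SE 0.17, adjusted p = 0.110). At 2 months the Q175 difference of Olig1 was -0.09, and Q20 held 2 of the 7 libraries that stood apart, in which Olig1 ran from 98.1 to 163 CPM against 67.7 to 136 CPM in the other 49. Without the 7 libraries the Olig1 values were 0.28 (adjusted p = 0.124) and 0.30 (adjusted p = 0.146), and neither passed. Olig2 still passed, at 0.43 (adjusted p = 0.0386). From 6 to 10 months 0 members were called by edgeR, 1 (Bmp4, 0.42, adjusted p = 0.763) had an unadjusted p under 0.05, and DESeq2 and limma called 0, beside 0.0112% of all genes.

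The lineage lists at 6 months had called shares near that of all genes. Of 19 other genes enriched in precursors 6 rose and 2 fell in Q175, 42.1% called beside 36.2% of all genes (18% higher and 18.2% lower). Nkx2-2, a homeobox factor of the lineage, rose by 0.33 (SE 0.12, adjusted p = 0.0233), and Myt1, a zinc finger factor, rose by 0.29 (SE 0.05, adjusted p = 2.19e-06). Cacng4, a subunit that tunes AMPA receptors, fell by 0.46 (SE 0.06, adjusted p = 4.96e-11). Of 12 committed genes 4 rose and 1 fell (41.7%), with Enpp6, a choline phosphodiesterase of newly forming oligodendrocytes, at 0.55 (SE 0.09, adjusted p = 1.07e-07) and Cnksr3 at 0.43 (SE 0.17, adjusted p = 0.0343).

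Of 15 myelin genes 5 fell and 1 rose (40.0%, beside the same 36.2%), and 9 did not pass. Mobp fell by 0.36 (SE 0.07, adjusted p = 2.61e-05) and Mal by 0.35 (SE 0.07, adjusted p = 1.62e-05), and both encode proteins of the myelin sheath. The 1 that rose, Gjb1, encodes a gap junction protein of oligodendrocytes (0.24, SE 0.09, adjusted p = 0.0268). List medians were 0.09 for other precursor genes, 0.11 for committed genes and -0.069 for myelin genes, beside 0.0097 over all genes. At 10 months Enpp6 was at 0.74 (SE 0.09, adjusted p = 2.04e-09), and 3 of 11 committed genes rose and 0 fell. Of other precursor genes 2 rose and 2 fell at that age, and of the 15 myelin genes 2 rose and 6 fell. Beside these 10-month counts, 12.4% of all genes were higher in Q175 and 12.1% lower.

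**Figure D4:**
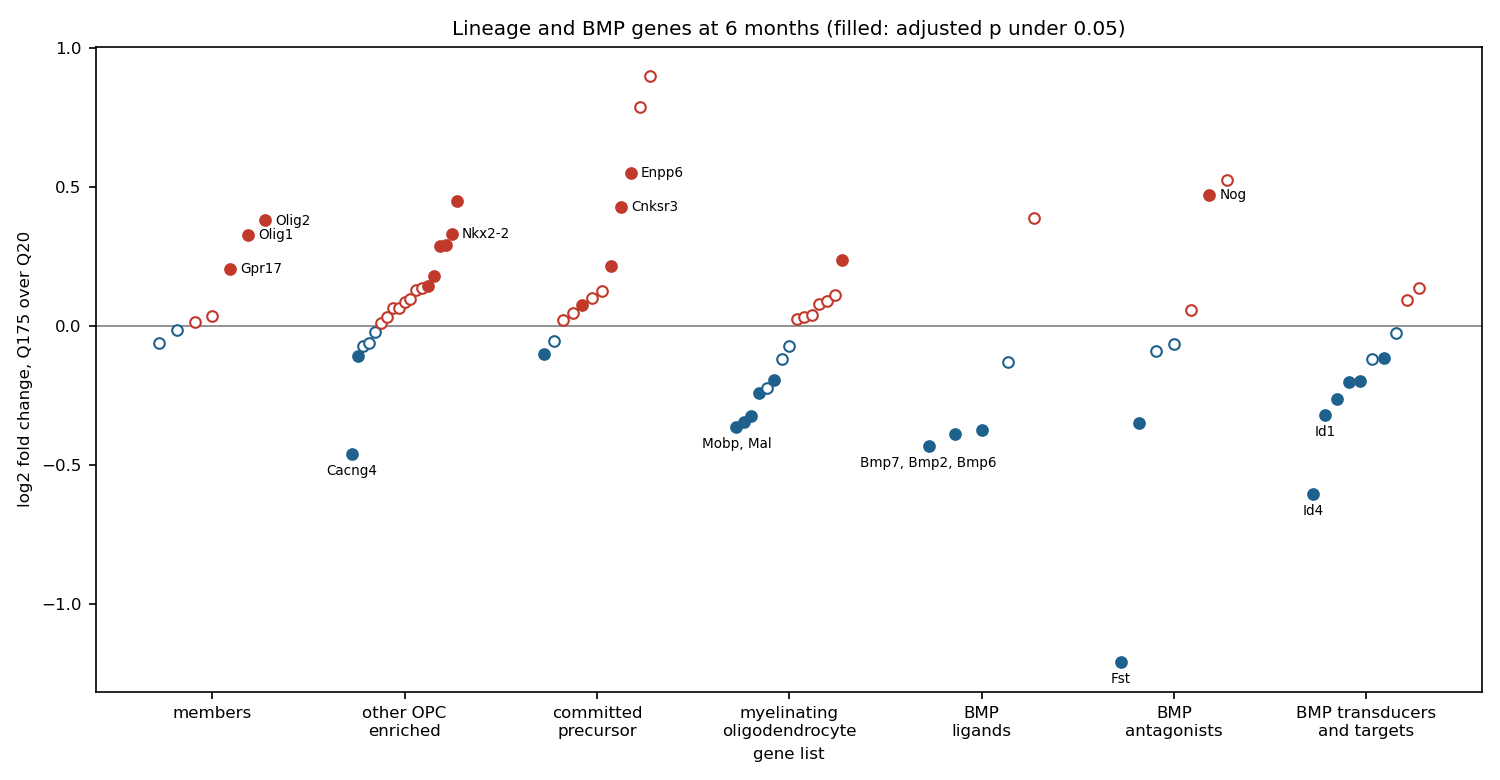
Log2 fold change, Q175 over Q20 at 6 months, of each gene of the lineage and BMP lists (points, filled where the adjusted p was under 0.05, red above 0 and blue below, with the members called and some of the others named). Precursor and committed genes called lie mostly above 0, myelin genes and BMP ligands called mostly or all below, and Fst is lowest at -1.21.

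Genes of the pathways of Pdgfra and Bmp4 were set beside them, in short lists to be read against the 18% of all genes that rose and 18.2% that fell in Q175 at 6 months, and the 12.4% and 12.1% at 10 months. Of 5 PDGF genes 1 rose and 1 fell at 6 months in Q175: Pdgfc, a ligand of the receptor, rose by 0.21 (SE 0.07, adjusted p = 0.0177), and Pdgfrb, the sister receptor of pericytes, fell by 0.20 (SE 0.05, adjusted p = 0.0024). Of 5 other BMP ligands 3 fell and 0 rose (60.0% called): Bmp7 by 0.43 (SE 0.08), Bmp2 by 0.39 (SE 0.08) and Bmp6 by 0.37 (SE 0.10). These ligands also fell at 10 months, when Bmp4 rose, with Bmp7 at -0.41, Bmp2 at -0.39 and Bmp6 at -0.30.

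BMP receptors split evenly, with 2 of 6 higher and 2 lower (66.7% called). Acvr1, a type I receptor, fell by 0.34 (SE 0.04, adjusted p = 3.31e-10), and Acvr2a, a type II receptor, rose by 0.28 (SE 0.06, adjusted p = 2.94e-05). Of 7 antagonists 1 rose and 2 fell (42.9%), with Nog (noggin) at 0.47 (SE 0.13, adjusted p = 0.00183) and Fst (follistatin) at -1.21 (SE 0.13, adjusted p = 8.35e-13). Fst was also lower at 10 months, by -1.16 (SE 0.14), when 3 antagonists fell and 0 rose. Of 10 transducers and targets 6 fell and 0 rose (60.0%), led by the inhibitors of differentiation Id4 at -0.60 (SE 0.05, adjusted p = 4.24e-20), Id1 at -0.32 and Id3 at -0.26. At 10 months 1 rose and 2 fell, with Id4 at -0.64. Medians were -0.37 for ligands, -0.09 for receptors, -0.064 for antagonists and -0.16 for targets at 6 months.

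Some markers of other cells were also called in Q175 against Q20 at 6 months. Their counts are to be read beside 18% of all genes higher and 18.2% lower. Medium spiny neuron markers fell in 8 of 9 cases, with a summed level of 4041 to 4690 CPM in Q175 and 7223 to 8538 CPM in Q20. The summed myelin level was 9362 to 11484 CPM in Q175 and 10455 to 13021 CPM in Q20. Of 12 cell cycle genes 1 rose, Pcna, by 0.09. Progenitor and neuroblast markers of the subventricular zone had 4 of 7 higher, with Sox11 at 0.85 and Dcx at 0.46. Pericyte markers had 5 of 7 lower, endothelial 3 of 6, astrocyte 3 of 8 (1 higher), microglial 2 of 7 and fibroblast 0 of 5, by edgeR. Of the thalamic markers 1 of 5 rose. No marker was at 0 in all libraries of a group, and the part of these markers in the members' changes was not tested. Genes of the GC classes of Olig1, Olig2 and Gpr17 had medians of 0.0053 and -0.00078 in this comparison.

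Sex was tested at each age. At 6 months females had less Olig1 than males, 124 ± 11.9 CPM against 133 ± 17.6 CPM (SD, n = 48 each), a log2 fold change of -0.10 (SE 0.03, adjusted p = 0.00958). Bmp4 was higher in females, 1.51 ± 0.229 CPM against 1.38 ± 0.241 CPM in males, by 0.14 (SE 0.05, adjusted p = 0.0380). These 2 members were called beside 18.5% of all genes, and the ranges of the sexes overlapped. The Bmp4 call was lost with no filter (adjusted p = 0.0640) and without 3 libraries of 6 months (0.12, adjusted p = 0.0781). At 2 and 10 months 0 members were called, beside 0.923% and 1.28% of all genes. At 2 months 1 library labelled male, Q80 M3, had 0 CPM of 4 Y-linked genes, whose sum was 107 to 325 CPM in the other males, and 0.462 CPM of Xist. It was kept as labelled, and without it 0 members were called at 2 months for sex or any line. The unadjusted counts were 0 and 1 (Pdgfra, 0.06, adjusted p = 0.327), and DESeq2 and limma called 0.

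Within groups, Olig1 and Olig2 moved together across libraries at every age after group means were taken off, with Pearson r of 0.87 at 2 months (n = 56), 0.71 at 6 months (n = 96) and 0.73 at 10 months (n = 56). Olig1 also moved with the mean of the myelin list, at 0.77, 0.64 and 0.56. These values share library, scaling and dissection, and are a description. Pdgfra, Cspg4, Vcan and Gpr17 had r of 0.81 to 0.90 with each other at 2 months, but without the 7 libraries the range was 0.25 to 0.61. At 6 months their r ran from -0.19 to 0.35, and Cspg4 was closer to Olig2 (0.67) and Olig1 (0.56), as Pdgfra was to Olig2 (0.45). At 10 months the 4 genes had r of 0.24 to 0.50 with each other.

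The 7 libraries differ in these genes without overlap in part. Pdgfra ran from 29.0 to 48.9 CPM in them and from 52.9 to 70.8 CPM in the other 49, Gpr17 from 31.7 to 47.1 against 49.95 to 70.1 CPM, and Cspg4 from 10.5 to 14.2 against 14.7 to 25.7 CPM. Olig1 lay higher, with a median of 134 against 96.4 CPM, and overlapped. The correlation with the mitochondrial share at 2 months was -0.91 for Pdgfra, -0.89 for Gpr17 and 0.71 for Olig1, and without the 7 it was -0.20, -0.14 and 0.31.

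**Figure D5:**
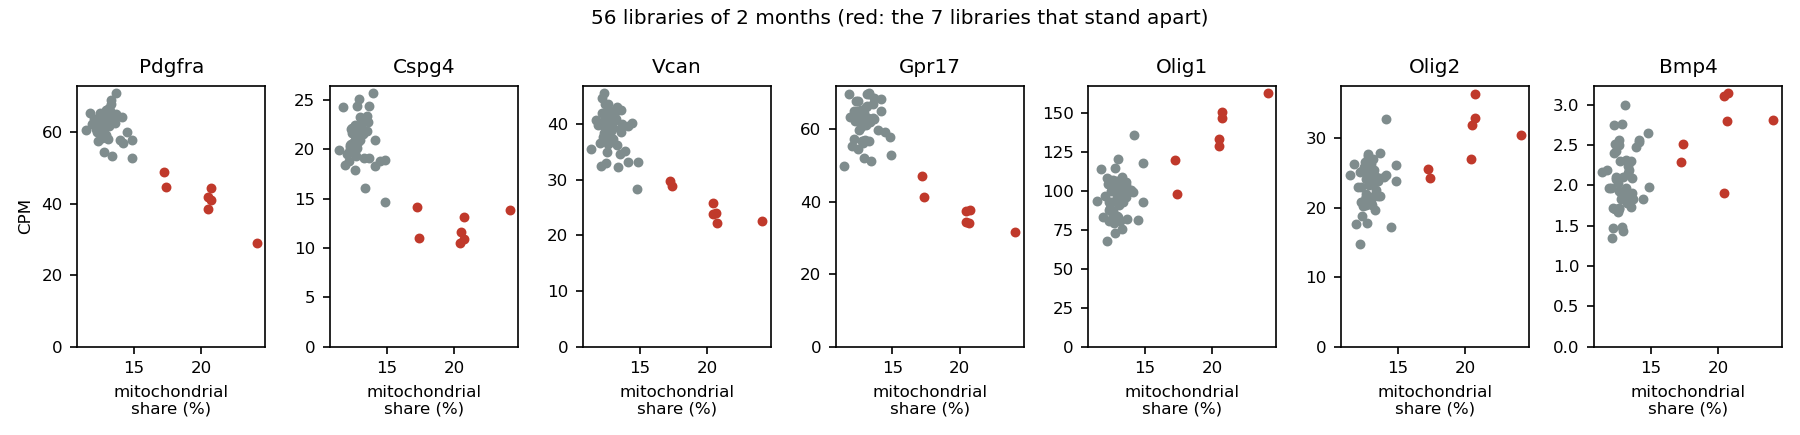
Level of members at 2 months (CPM scaled by TMM) against the percent of counts on mitochondrial genes in each of the 56 libraries, with the 7 that stood apart marked. In these 7, at 17.2 to 24.1%, Pdgfra and Gpr17 lie below all of the other 49, and Olig1 lies mostly above their median.

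The genes most alike in pattern were sought among 13340 genes by Pearson r over the 26 group means. Those means span all ages, so differences between the age cohorts enter r, and their part was not tested. The pattern of Olig1 was closest to Nkx6-2 (0.97), a homeobox factor of oligodendrocytes, then Tmem121 and Cenpb (0.96 each). Among the 3 genes closest to Olig2 were Endog (0.88) and Ccdc22 (0.86). For Gpr17 the closest were Kif19a (0.94), Cemip2 (0.93) and Nlgn3 (0.92), and for Bmp4 Rras2 and Rap2a (0.94 each) and Fyn (0.91). Cspg4 was closest to Dop1b and Hspg2 (0.98 each), Vcan to Fnip2 (0.86), Psd3 and Grk5 (0.85 each), and Pdgfra to Ptprt (0.86), Rbm5 and Rims1 (0.83 each). For Pdgfra and Vcan the best match was lower than for the other members. Across all libraries less group means, the mean of the 7 members was closest to Phldb1 and Arhgap23 (0.79 each) and Arhgef10 (0.78), with the myelin regulator Myrf (0.75) also among the 10 closest.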

How the data were processed

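The authors deposited expected counts (estimated read counts per gene, not all whole, 32.67% of values above 0) and FPKM for the same libraries. CASAVA 1.8.2 is named in the submitters' processing notes. For aligner, build and annotation, the names were not given in the sources used here.

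Expected counts were rounded. Separate fits for each age used edgeR 4.0.16 in R 4.3.3: filterByExpr (minimum count 10, total 15), TMM scaling, robust quasi-likelihood test, sex as covariate, adjusted p under 0.05 over all genes tested. Age and the change of the Q175 difference with age used a joint fit of 17863 genes. The trend is per 10 repeats. Intervals are 95%, from the SE. Groups are line, age and housing.

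The members and 19 further gene lists were chosen with earlier results of these data known. Named genes are the members, the largest called list genes in Q175 and the closest patterns (genes of at least 1 CPM); some of these are not reported here. 1 list gene was not matched.

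Alternatives were DESeq2 1.42.0, RLE factors, no filter, limma 3.58.1 on log2(FPKM + 1) or log2(FPKM + 0.1), the replicate block, only the groups compared, marker scores as covariates and libraries left out. The fits leaving out 1 library were chosen after the data were seen. The pipeline was tested on simulated data. Promoters came from RefSeq tables, with no entry used for Olig1 and Gpr17. Counting error alone does not set the SE, and PCR copies are counted as reads.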

Additional observations from a re-analysis of the deposited data

Results flagged for a closer look

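Within groups of 8, a library was set apart where its gap to the nearest other exceeded Dixon's critical value at the 95% level. This held for 14 of 182 combinations of group and member, and chance alone flags about 1 in 20. All values are CPM.

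At 2 months Q80 M5 lay below its group for Pdgfra (29.0), Vcan (22.6) and Gpr17 (31.7) and above it for Olig1 (163). Q111 F2 of that age lay low for Vcan (29.0) and Gpr17 (41.3). Both are among the 7 libraries with a high mitochondrial share, whose part in these values was not tested. Q175 F4 at 2 months lay high for Olig1 (136).

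At 6 months Olig1 was high in Q175 M4 (207), Pdgfra in the wild type M3 housed with Q80 (67.7), Olig2 in Q80 F1 (36.2) and Bmp4 in Q80 F3 (2.18). Gpr17 was low in Q111 M1 (38.5). At 10 months Cspg4 was low in Q140 F1 (13.8) and Vcan high in wild type F4 (42.1).

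The Q175 difference changed with age for Olig1, by 0.42 on the log2 scale from 2 to 6 months and 0.44 from 2 to 10 months, and for Olig2 by 0.51 from 2 to 6 months, in a test of the difference itself. Without the 7 libraries the Olig1 values were 0.28 and 0.30, neither called, and that of Olig2 was 0.43, still called. Without Q175 F4 of 2 months they were 0.50, 0.52 and 0.59, in the same order.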

How the results depend on the processing

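Of 313 counts of called members under other settings, 290 stayed within 1.5 times the main count. Many of the main counts were 0 with few genes called at all, and an equal count need not hold the same members. Of 217 values of called members, 201 kept direction and call, 13 lost the call and 3 reversed. The 3 are Vcan in Q175 against cage mates, at 0.014 on log2(FPKM + 1), 0.018 on log2(FPKM + 0.1) and 0.014 on log2(FPKM + 1) with no filter. The cause was not tested. Counts that moved were these. Q140 at 6 months (2 called) gave 4 on both FPKM scales and 1 with only the groups compared. Q140 at 10 months (1) gave 2 with DESeq2, with the 3 FPKM settings and with the myelin score. Q175 at 10 months (2) gave 4 and Q111 (1) gave 2 with the myelin score. Against cage mates, Q175 (2) gave 1 on unfiltered FPKM, and Q140 (1) gave 0 with no filter and on the 3 FPKM settings and 2 with the myelin score. The trend at 6 months (3) gave 1 without Q175. Without the 7 libraries the change of the Q175 difference gave 1 at 6 months (2) and 0 at 10 months (1). Sex at 6 months (2) gave 1 with no filter, on log2(FPKM + 1) and without 3 libraries set apart in earlier work on these data (Q20 M4, Q92 F2 and Q80 F3). Of these, Q92 F2 had 508 CPM of cortical markers, against at most 171 in the other 93 libraries, Q80 F3 had 5624 CPM of choroid plexus markers, against a median of 58.8 and a highest value of 5708 in the others, and Q20 M4 lay within the range of the others for cortical, thalamic and choroid plexus markers.

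In 72 refits leaving out 1 library, 199 of 214 values kept their call and 15 lost it. The count ran from 2 to 3 in Q175 and 0 to 3 in Q140 at 6 months, from 2 to 3 in Q175 and 1 to 2 in Q140 and Q111 at 10 months, and from 1 to 2 in Q175 and 0 to 1 in Q140 against cage mates.

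Replicate numbers were not taken as pairing the mice, since the labels do not give their meaning. Same-numbered pairs correlated as low as -0.90, -0.32 and -0.58 at 2, 6 and 10 months. In that order, the mean correlation was -0.0065, 0.11 and 0.027 for same-numbered libraries and 0.0047, -0.038 and -0.0083 for other numbers. At these ages 7 of 56, 66 of 96 and 14 of 56 libraries correlated best with their own number. That is a hint of shared variation at 6 months that comes from the data and not the design. The main tests of 6 months did not model it. There the block gave 3 members in Q175 and 2 in Q140 against Q20, as without it. With the replicate block, 2 members were called in Q140 at 10 months and 3 in Q175 at 10 months; with it no other count moved by over 1.5 times. Bmp4 could not be tested on filtered FPKM at 6 or 10 months alone and had no adjusted p by DESeq2 in Q80 at 10 months, and its few counts limit its precision.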
